A study of Mus musculus with 9 samples.

Results

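Neurexins, neuroligins and the Mdga proteins form one system of cell surface adhesion and its inhibition, and the RNA of 7 of their genes was followed here in the cochlear duct of Prdm16 mutant mouse embryos. The genes were Nrxn2, Nrxn3, Nlgn1, Nlgn2, Nlgn3, Mdga1 and Mdga2, 7 of the 54232 genes counted in every library. They were chosen by name, with results of these same counts in all 9 libraries and all 3 genotypes known. Their levels, fold changes and calls are therefore given as a description, and their p-values are not printed. Bulk RNA sequencing was performed on cochlear ducts microdissected at E14.5 from 3 WT, 3 heterozygote and 3 null embryos, with both inner ears of 1 embryo in each library. The null allele was Prdm16 cGT, a germline gene trap, on an FVB/NJ background. Heterozygotes carried 1 copy of it, null embryos carried only trapped copies, WT embryos carried none, all came from crosses of cGT/+ parents, and littermates were used within a genotype. The embryos received no treatment. The comparisons ask which RNAs of the developing duct depend on PRDM16, a zinc finger transcriptional regulator that marks Kölliker's organ, the columnar epithelium medial to the future organ of Corti.

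At a synapse, a neurexin on the presynaptic membrane binds a neuroligin on the postsynaptic membrane, and the pair helps to align release sites with receptors. The Mdga proteins are anchored to the membrane by a lipid, sit beside neuroligins and cover the surface that neurexin binds, so they act as inhibitors of the pair. The same genes are transcribed in many tissues outside the nervous system, and at this stage the duct is an epithelium in which no hair cell synapse has formed.

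Total counts per library ranged from 24095322 to 30819118, and a count of 3, taken as the floor of a library, equalled 0.0969 to 0.126 CPM (counts scaled with TMM to a common library size). Such a floor covers counting error only. Prdm16 itself was at 184 to 225 CPM in WT, 123 to 151 CPM in heterozygotes and 19.1 to 27.4 CPM in null embryos, in the order of the labels (log2 fold change of null against WT -3.12, SE 0.146, edgeR adjusted p = 0.000148). The 4 markers of duct epithelium, Epcam, Cdh1, Cldn6 and Sox9, summed to 1730 to 1820 CPM in WT, 1880 to 1960 CPM in heterozygotes and 1890 to 2250 CPM in null embryos. The 6 mesenchyme markers (Pou3f4, Tbx18, Prrx1, Col1a2, Col3a1 and Pdgfra) set 3 libraries apart. Their sum was 412 CPM in WT 1, 825 in WT 2 and 94.8 in WT 3. It was 39.1, 82.9 and 57.9 CPM for heterozygotes 1 to 3 and 53.3, 28.2 and 1260 CPM for null 1 to 3. None of the 6 was at 0 in any library. WT 1, WT 2 and null 3 were also the highest in the 4 endothelial markers, at 72.6, 58.4 and 40.5 CPM against 1.97 to 4.97 CPM in the other 6 libraries. The 4 blood markers, globin genes, summed to 65 to 186 CPM in WT, 23.5 to 44.5 CPM in heterozygotes and 52.7 to 94.3 CPM in null embryos. None of the epithelial, mesenchyme, endothelial or blood markers that were tested was called between any 2 genotypes. Missing calls do not mean equal levels. In heterozygotes against WT the log2 fold changes of the 6 mesenchyme markers were -3.87 to -2.48. Those of the tested endothelial markers were -4.82 to -2.94, and those of the tested globin genes -2.07 to -1.82. Results that rest on WT 1, WT 2 and null 3 are given with and without them. In such bulk samples fewer cells of a type and less RNA per cell cannot be told apart.

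Start site sequences are shown for Mdga1 and Nrxn3, the genes called in null embryos, and for Mdga2, the relative of Mdga1 with a different pattern. They come from RefSeq (GRCm38.p6, the assembly of mm10), which gave 8 start sites for 5 of the 7 genes. Nrxn2 and Nlgn3 had no entry in the table used. Each window runs 5′ to 3′ from 250 bases before to 50 bases after the start, and capitals mark CpG. The Mdga1 window lies at chr17:29887833-29888132 and the Mdga2 window at chr12:67222500-67222799, both on the minus strand. Of the RefSeq starts listed for Nrxn3, the first lies at chr12:88794254-88794553 and the last at chr12:89812233-89812532, both on the plus strand. The annotated genes of Nrxn3 and Mdga1 reach further in the 5′ direction, to 88722876 and 29970087. None of their windows is therefore at the 5′ end of the annotated gene.
Mdga1: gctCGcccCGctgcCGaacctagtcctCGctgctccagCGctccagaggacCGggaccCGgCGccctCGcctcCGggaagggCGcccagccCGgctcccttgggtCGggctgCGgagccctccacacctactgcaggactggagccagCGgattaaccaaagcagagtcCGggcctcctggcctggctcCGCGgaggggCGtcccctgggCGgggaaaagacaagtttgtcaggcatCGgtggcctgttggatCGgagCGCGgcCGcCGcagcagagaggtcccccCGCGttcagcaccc
Mdga2: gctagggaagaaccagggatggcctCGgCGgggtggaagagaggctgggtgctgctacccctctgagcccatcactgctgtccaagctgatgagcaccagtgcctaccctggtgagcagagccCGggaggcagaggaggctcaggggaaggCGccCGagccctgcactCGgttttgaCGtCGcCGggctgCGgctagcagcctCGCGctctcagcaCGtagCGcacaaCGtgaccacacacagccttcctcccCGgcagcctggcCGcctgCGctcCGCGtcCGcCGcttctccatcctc
Nrxn3 first start: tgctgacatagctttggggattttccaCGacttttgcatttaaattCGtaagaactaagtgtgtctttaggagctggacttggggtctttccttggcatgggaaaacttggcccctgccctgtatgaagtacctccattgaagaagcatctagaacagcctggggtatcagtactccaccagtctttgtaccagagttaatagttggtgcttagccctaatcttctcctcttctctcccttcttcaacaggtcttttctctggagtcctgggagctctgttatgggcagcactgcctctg
Nrxn3 last start: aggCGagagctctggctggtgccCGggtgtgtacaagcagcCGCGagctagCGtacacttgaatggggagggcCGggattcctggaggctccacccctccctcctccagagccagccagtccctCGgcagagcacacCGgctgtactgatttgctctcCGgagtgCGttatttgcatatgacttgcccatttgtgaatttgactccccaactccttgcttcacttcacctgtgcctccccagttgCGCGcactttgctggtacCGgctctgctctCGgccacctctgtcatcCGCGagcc
The Mdga1 window held 28 CpG and 71.3% G or C, and the Mdga2 window held 22 CpG and 67.7%, against medians of 7 CpG and 52.7% over 32851 windows of the same length. The windows of Nrxn3 differed from each other, with 2 CpG and 47.3% at the first start and 16 CpG and 60.7% at the last. Nlgn2 had 26 CpG, and the pair of Nlgn1 windows had 6 and 14. The letters AAGATA, which occur in the DNA motif known for MECOM, a close relative of PRDM16, were in none of the 8 windows on either strand, and were in 9.84% of all windows. The letters TATAAA were likewise in none of the 8 and in 13.6% of all windows. That says only that these letters are not in these windows. The counts do not tell which start a transcript used.

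The 7 genes differed widely in level, and the order was led by a neuroligin. Nlgn2, which at synapses is the neuroligin of inhibitory contacts, was at 49.2 CPM per kb of exon in WT (range 47.3 to 50.7, n = 3). It made up 90.4% of the summed level per kb of the 7 genes in WT, 89.7% in heterozygotes and 87.3% in null embryos. Nlgn3, found at both excitatory and inhibitory synapses, followed at 1.91 CPM per kb in WT (1.71 to 2.06), and Nrxn3 at 1.73 (1.59 to 1.83), with ranges that overlapped. Mdga2 was at 0.754 (0.524 to 0.873) and Mdga1 at 0.422 (0.264 to 0.51), and Mdga1 lay below Mdga2 in every WT embryo. Nrxn2 at 0.224 (0.189 to 0.258) and Nlgn1, the neuroligin of excitatory synapses, at 0.194 (0.146 to 0.243) came last, with ranges that overlapped. The lengths are those of all annotated exons together, so a gene of which only a short form was transcribed has a level per kb that is too low.

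**Figure D1:**
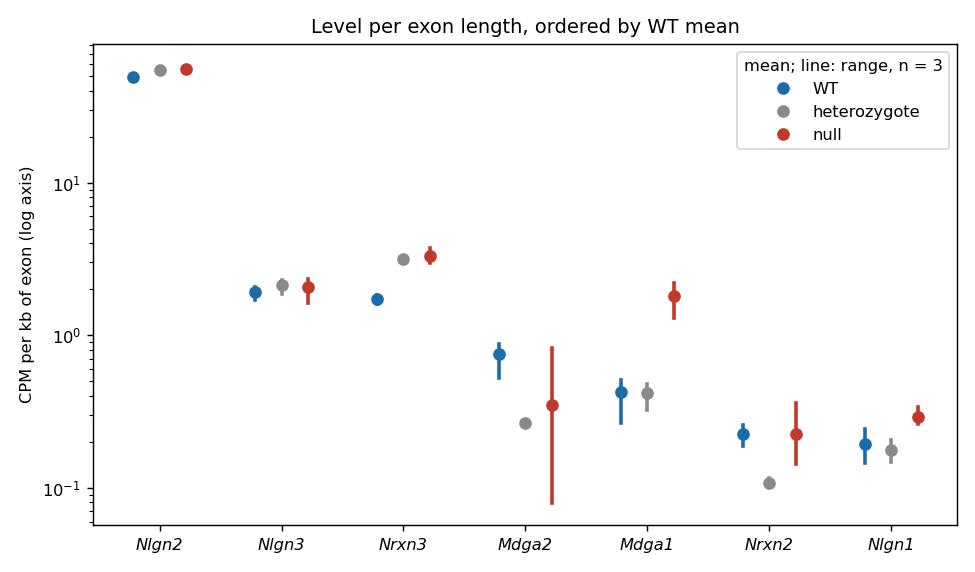
Level of each gene in CPM per kb of exon (log axis), ordered by the WT mean, with points for the mean of 3 embryos and lines for the range. Nlgn2 stands far above the rest at 49.2 in WT, Mdga1 is highest in null embryos, and the Mdga2 range in null embryos is the widest.

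Of the 7 genes, all of which passed the filter on low counts, 2 were called higher and none lower in null embryos against WT, where a call needs an edgeR quasi-likelihood p, adjusted over all genes tested, under 0.05 and a log2 fold change beyond 0.5 in size. Among all 17168 genes tested 1.71% were called, and 0.920% were called higher. Since this contrast was known when the genes were chosen, nothing is read from the count. The called genes were Nrxn3 and Mdga1. The median log2 fold change of the 7 genes was 0.17, beside 0.01 over all genes tested. In heterozygotes against WT, Nrxn3 was called higher and Mdga2 lower, with 0.151% of 17269 genes called and a median of -0.01 over the 7 genes, beside 0.00 over all. In null embryos against heterozygotes, Mdga1 alone was called, higher, with 0.615% of 17067 genes called and a median of 0.40 over the 7 genes, beside 0.01 over all. That median is the value of Mdga2, which was -1.31 without null 3. The comparisons share libraries in pairs and are not independent of each other. Groups without overlap, described gene by gene here, were common among all genes tested, at 19.0% between null and WT, 18.0% between heterozygotes and WT and 18.2% between null embryos and heterozygotes.

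**Figure D2:**
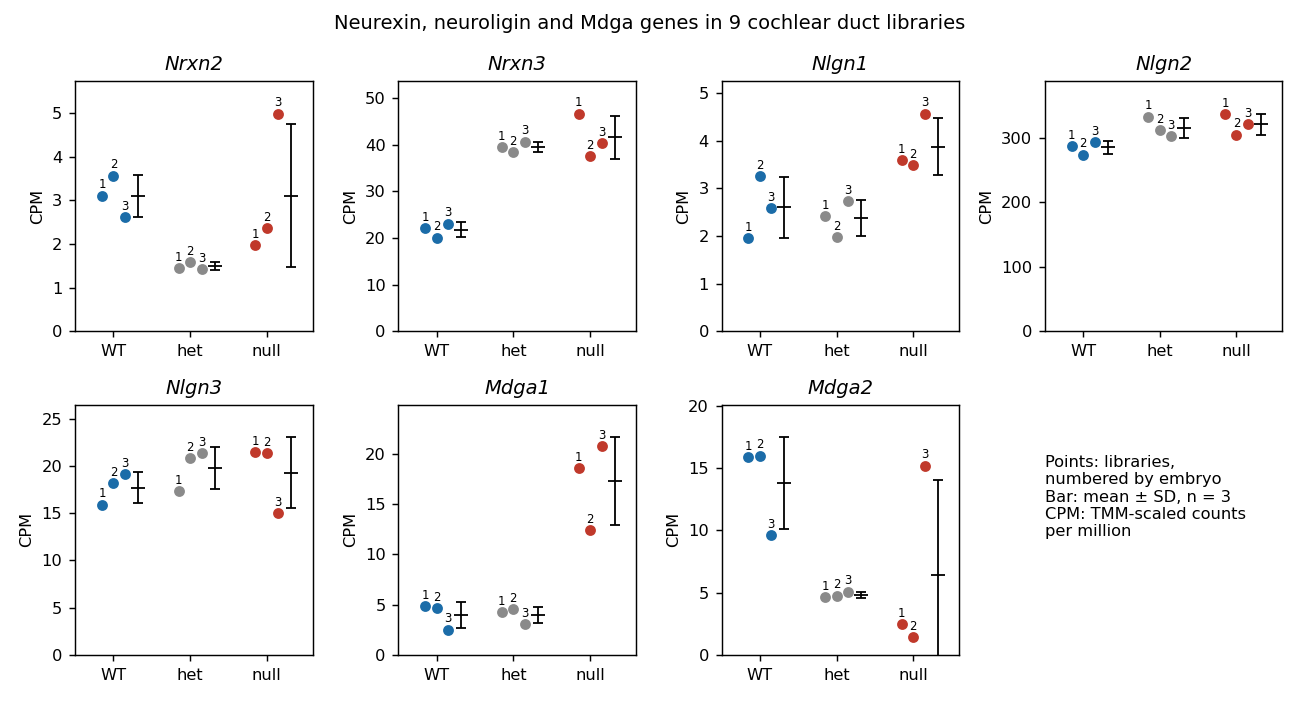
CPM of each gene in every library, numbered by embryo, with bars for the mean ± SD of 3 embryos (linear axes from 0; the lower arm of the Mdga2 bar in null embryos passes below 0). Nrxn3 sits between 37.6 and 46.7 CPM in all 6 mutant libraries and at or under 23.1 CPM in WT, while Mdga1 stands at 12.4 CPM or more only in the null libraries.

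Nrxn3 (ENSMUSG00000066392), the presynaptic receptor with the highest level of the neurexins examined, rose in mutants of both genotypes. It was at 22.2, 20.1 and 23.1 CPM in WT, at 39.5, 38.5 and 40.7 CPM in heterozygotes, and at 46.7, 37.6 and 40.4 CPM in null embryos. Every mutant library was above every WT library, and the heterozygote values lay inside the range of the null values. The means were 21.8 ± 1.54 CPM in WT, 39.6 ± 1.12 CPM in heterozygotes and 41.6 ± 4.66 CPM in null embryos (SD, n = 3 each). Against WT, null embryos had a log2 fold change of 0.93 (SE 0.116) and heterozygotes one of 0.86 (SE 0.0788), a rise of 1.9 and 1.82 times. Between null and heterozygote embryos the log2 difference was 0.07 (SE 0.1), not called.

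The Nrxn3 and mesenchyme marker levels of the libraries are given side by side. WT 3, with 94.8 CPM of the 6 mesenchyme markers, was at 23.1 CPM and heterozygote 2, with 82.9 CPM of them, at 38.5 CPM. Null 3, the library highest in these markers, was at 40.4 CPM, between the other null embryos. The part of mesenchyme cells in the Nrxn3 values was not tested. Without WT 1, WT 2 and null 3 null embryos had a log2 fold change of 0.87, not called with the 1 WT and 2 null libraries that remained, and heterozygotes one of 0.78, called. Both set mutants against WT 3 alone, whose spread was taken to be that of the mutant group. The null call was also lost without WT 1 (0.94) or without WT 2 (0.88), and the heterozygote call without heterozygote 2 (0.88), without heterozygote 3 (0.84) or with all 9 libraries in one fit (0.86). The markers of the duct's regions are given for comparison. Those of the prosensory domain (Sox2, Jag1 and Hey2) summed to 527 to 568 CPM in WT, 628 to 668 CPM in heterozygotes and 595 to 785 CPM in null embryos, and those of the roof (Fgf9, Otx1 and Otx2) to 270 to 319, 328 to 356 and 355 to 434 CPM. Like Nrxn3 and the epithelial markers, both sums were above all WT values in all 6 mutant libraries, though none of these 6 genes was called against WT. Those of the outer sulcus (Bmp4 and Lmx1a), at 477 to 567, 538 to 602 and 565 to 770 CPM, overlapped WT in both mutants and were not called. The 2 markers of Kölliker's organ, Fgf10 and Tecta, had summed levels of 2730 to 3380 CPM in WT, 2620 to 3270 CPM in heterozygotes and 1480 to 1740 CPM in null embryos, and both were called lower in null embryos against WT. The part of these shifts in the Nrxn3 values was not tested. Nrxn3 spans 1612.1 kb on the plus strand of mm10 (chr12:88722876-90334935), with 13 annotated transcripts that include long and short forms, and counts per gene do not separate them.

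Nrxn2 (ENSMUSG00000033768, chr19:6418731-6544169, plus strand) was lowest in heterozygotes. Its values were 3.11, 3.57 and 2.61 CPM in WT, 1.45, 1.59 and 1.43 CPM in heterozygotes, and 1.98, 2.36 and 4.99 CPM in null embryos. All heterozygote values lay below all others, and null 3 stood above all others. The log2 fold change was -1.06 (SE 0.211) in heterozygotes against WT and 0.00 (SE 0.363) in null embryos against WT, neither called. In WT the gene rested on 77 to 91 counts a library. Null 3, the highest, was also the library highest in mesenchyme markers. The 10 neuron markers summed to 218 CPM in null 3, the lowest sum, and to 247 to 294 CPM in the other 8 libraries. Most of this was Isl1, a gene that the duct itself transcribes. The 9 markers other than Isl1 summed to 42.5 CPM in null 3 and to 13 to 25.9 CPM in the other 8 libraries. Neurod1 was at 0 in the WT libraries and in null 3. Nefm and Nefl were higher in null 3 than in any other library, at 16.6 and 7.84 CPM, and Tubb3, at 9.01 CPM, was not. The part of mesenchyme cells or neurons in the Nrxn2 values was not tested. Without WT 1, WT 2 and null 3 null embryos had a log2 fold change of -0.26 and heterozygotes one of -0.81, neither called. The heterozygote value was called with DESeq2 (-1.06), without the filter on low counts (-1.06) and without WT 3 (-1.16).

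The neuroligins were not called in any comparison. Nlgn2 (ENSMUSG00000051790, chr11:69823122-69837784, minus strand) was at 287, 274 and 293 CPM in WT, 333, 312 and 302 CPM in heterozygotes, and 337, 305 and 321 CPM in null embryos. All 6 mutant libraries were above the 3 WT libraries, by a small margin. Null embryos had a log2 fold change of 0.17 (SE 0.0734) and heterozygotes one of 0.15 (SE 0.0482), under the 0.5 that a call required. Both comparisons also missed the adjusted p that a call required.

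Nlgn1 (ENSMUSG00000063887, chr3:25426215-26332460, minus strand) was at 1.96, 3.26 and 2.58 CPM in WT, 2.41, 1.98 and 2.74 CPM in heterozygotes, and 3.59, 3.49 and 4.57 CPM in null embryos. The null values were above all others, and those of WT and heterozygotes overlapped. The log2 fold change of null embryos was 0.57 (SE 0.254) against WT and 0.70 (SE 0.228) against heterozygotes, on 53 to 109 counts a library, and that of heterozygotes against WT was -0.13 (SE 0.241).

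Nlgn3 (ENSMUSG00000031302, chrX:101299168-101325963, plus strand) was at 15.9, 18.2 and 19.1 CPM in WT, 17.3, 20.8 and 21.4 CPM in heterozygotes, and 21.5, 21.4 and 15 CPM in null embryos. The 3 genotypes overlapped, with log2 fold changes of 0.12 (SE 0.167) in null embryos and 0.16 (SE 0.111) in heterozygotes against WT. Its exons share 3823 bases with the predicted gene Gm21986 on the same strand, which had 12 to 26 counts a library, so reads of these genes could not be fully separated.

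Mdga1 (ENSMUSG00000043557), one of the inhibitors of neurexin and neuroligin binding, had the largest fold change of the 7 genes in null embryos and was called higher there against both other genotypes. When null 3 alone was left out, Mdga2 had the larger change against WT, at -2.83 beside 1.95 for Mdga1 on the log2 scale. Mdga1 was at 4.85, 4.67 and 2.51 CPM in WT, 4.3, 4.54 and 3.07 CPM in heterozygotes, and 18.6, 12.4 and 20.8 CPM in null embryos. The 3 null values lay far above the other 6, which overlapped. The means were 4.01 ± 1.3 CPM in WT, 3.97 ± 0.788 CPM in heterozygotes and 17.3 ± 4.36 CPM in null embryos (SD, n = 3 each). The log2 fold change of null embryos was 2.10 (SE 0.299) against WT and 2.12 (SE 0.242) against heterozygotes, a rise of 4.29 and 4.34 times, while that of heterozygotes against WT was -0.01 (SE 0.266), not called.

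Beside mesenchyme marker sums of 53.3, 28.2 and 1260 CPM, null 1, null 2 and null 3 were at 18.6, 12.4 and 20.8 CPM of Mdga1. The part of mesenchyme cells in the Mdga1 values was not tested. Without WT 1, WT 2 and null 3 the log2 fold change was 2.62 against WT and 1.96 against heterozygotes, both called. The former set 2 null libraries against WT 3 alone, whose spread was taken to be that of the null libraries. The call against WT was lost without WT 1 (2.27), without WT 2 (2.23) or without null 1 (2.05), and that against heterozygotes without heterozygote 1 (2.18) or heterozygote 3 (1.96). Mdga1 lies at chr17:29827949-29970087 on the minus strand.

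Mdga2 (ENSMUSG00000034912, chr12:66466060-67222549, minus strand), the other inhibitor, was below the WT range in 5 of the 6 mutant libraries. It was at 15.9, 16 and 9.6 CPM in WT, 4.66, 4.76 and 5.08 CPM in heterozygotes, and 2.48, 1.45 and 15.2 CPM in null embryos. Heterozygotes lay below all WT values, null 1 and null 2 lay below the heterozygotes, and null 3 was inside the WT range. The log2 fold change was -1.51 (SE 0.194) in heterozygotes against WT, called and 0.35 times the WT level, and -1.13 (SE 0.766) in null embryos against WT, not called. The heterozygote call was lost without WT 2 (-1.40), without any single heterozygote (-1.49 to -1.55) or with all 9 libraries in one fit (-1.52). Without null 3 the null value was -2.83 and was called.

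The Mdga2 level was highest in the libraries highest in mesenchyme and endothelial markers. WT 1, WT 2 and null 3, at 412, 825 and 1260 CPM of the mesenchyme markers, had the highest Mdga2 values and also the highest endothelial markers. Null 2, at 28.2 CPM of the mesenchyme markers, had the lowest Mdga2 value. In the remaining libraries Mdga2 did not follow the endothelial markers throughout. WT 3 had 2.24 CPM of them beside 9.6 CPM of Mdga2, and null 1 had 4.91 CPM beside 2.48 CPM. Among libraries close in mesenchyme markers, WT 3 (94.8 CPM) was at 9.6 CPM of Mdga2 and heterozygote 2 (82.9 CPM) at 4.76 CPM. Null 1 (53.3 CPM) was at 2.48 CPM where heterozygote 3 (57.9 CPM) was at 5.08 CPM. Without WT 1, WT 2 and null 3 null embryos had a log2 fold change of -2.29 and heterozygotes one of -0.99, both called, and these rested on 1 WT library whose spread was taken to be that of the other groups. The part of mesenchyme or endothelial cells in the Mdga2 values was not tested.

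**Figure D3:**
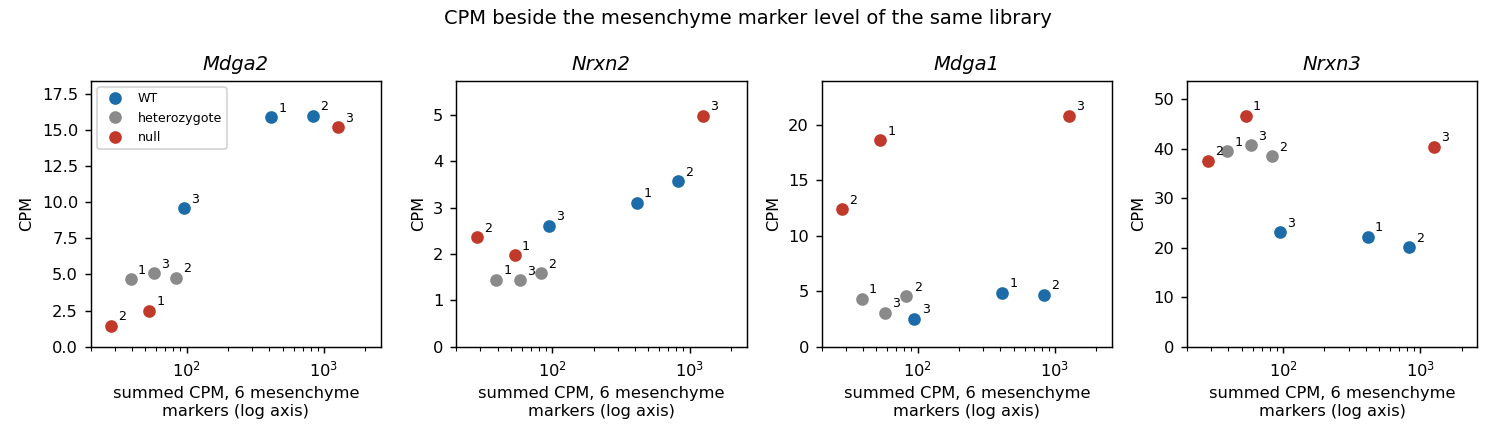
CPM of 4 genes (linear axes from 0) against the summed CPM of 6 mesenchyme markers (log axis) in the same library, with points numbered by embryo and coloured by genotype. Mdga2 is lowest on the left and highest on the right, whereas the null points of Mdga1 lie above the rest and the WT points of Nrxn3 below the rest. No heterozygote has more than 82.9 CPM of these markers.

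The ratio of Mdga1 to Mdga2 in CPM per kb was between 0.504 and 0.588 in WT, between 1.16 and 1.84 in heterozygotes and between 2.64 and 16.4 in null embryos, with no overlap between genotypes. In CPM not divided by length, Mdga1 was below Mdga2 in every WT and heterozygote library, so the heterozygote ratios above 1 rest on the exon lengths. In null embryos Mdga1 was above Mdga2 on either scale. The ratios include Mdga2, which was highest in the libraries highest in mesenchyme and endothelial markers. The part of those cells in the ratios was not tested. Nrxn3 and Mdga2 lie on the same chromosome, 21.5 Mb apart.

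**Figure D4:**
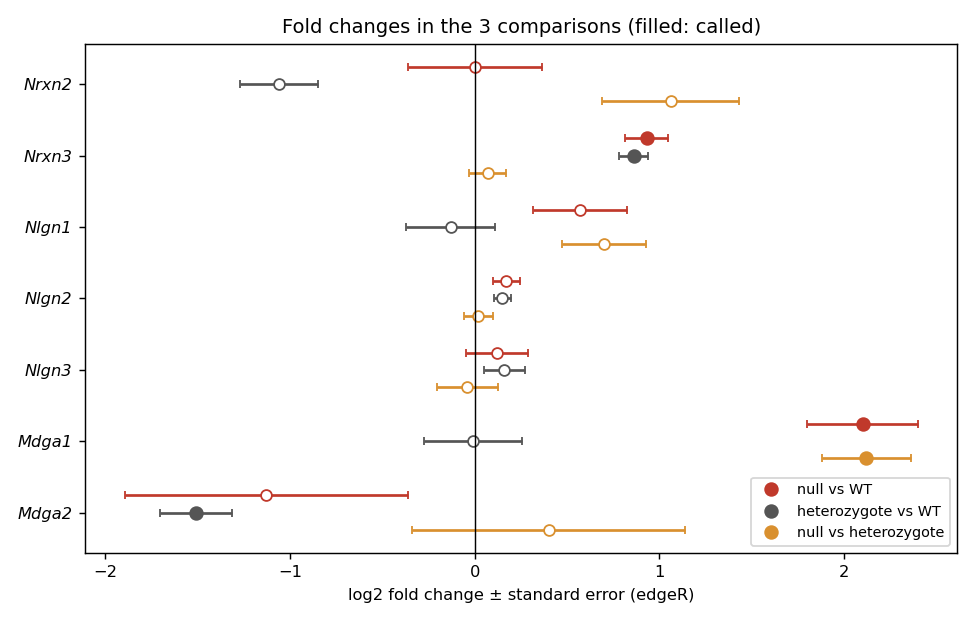
Log2 fold change ± standard error from edgeR for each gene in the 3 comparisons, with filled points for called genes. Nrxn3 is called in both mutants against WT at 0.93 and 0.86, Mdga1 in null embryos against WT and heterozygotes at 2.10 and 2.12, and Mdga2 in heterozygotes at -1.51.

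The partners of these proteins were followed in 72 genes listed by known function. The lists were made with earlier results of these data known, and Lrrtm3, Cbln1 and Lsamp had been seen among reported genes. These 3 were the partners called in null embryos against WT. Their calls are not independent evidence, and nothing is read from the share called. In null embryos against WT, 66 were tested, of which 2 were higher, 1 lower and 63 not called (4.55% called, beside 1.71% of all genes tested), with a median log2 fold change of -0.04. Of the 66 tested, 20 had an unadjusted p under 0.05, beside 12.2% of all genes tested. DESeq2, with its own filter, called 7 of the 72 (and 3.27% of all genes it tested), among them Nxph1, which was not tested by edgeR. The count of calls was 0 without WT 2, 1 without WT 1 and 5 without null 3. It was 2 without WT 3, without null 1, without null 2, or without WT 1, WT 2 and null 3 together.

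Among 20 neurexin ligands, of which 16 were tested, 1 rose and 1 fell. Cbln1, a secreted protein that bridges neurexins and delta glutamate receptors, was at 11.6, 11.4 and 15.1 CPM in WT, 19.2, 20.9 and 22.9 CPM in heterozygotes, and 21.6, 33 and 24.3 CPM in null embryos. All mutant libraries were above WT, and it rose in null embryos by a log2 fold change of 1.05 (SE 0.193, edgeR adjusted p = 0.0433). In heterozygotes the value was 0.72 (SE 0.126, edgeR adjusted p = 0.0588). Lrrtm3, a leucine-rich repeat protein of the postsynaptic membrane that binds neurexins, was at 4.59, 4.94 and 4.27 CPM in WT, 2.37, 3.64 and 3.58 CPM in heterozygotes, and 1.4, 1.78 and 1.47 CPM in null embryos. The 3 genotypes did not overlap, and the gene fell by 1.57 on the log2 scale in null embryos (SE 0.209, edgeR adjusted p = 0.0119). Its relative Lrrtm1, which DESeq2 but not edgeR called, had a log2 fold change of -1.17 (SE 0.276, edgeR adjusted p = 0.103).

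None of the 15 tested of 16 genes of the scaffold beneath neuroligins, the 2 delta receptors, the 6 genes of the neurexin cytoplasmic scaffold, the 3 splicing regulators of neurexins or the 18 tested of 19 other synaptic organisers was called by edgeR in this comparison. DESeq2 called Slitrk2 and Ntrk3 among the last.

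In the IgLON family, lipid-anchored immunoglobulin proteins of the same kind of membrane attachment as the Mdga proteins, 1 of 5 rose. Lsamp was at 15.2, 13.1 and 13.5 CPM in WT, 19, 15.1 and 16.7 CPM in heterozygotes, and 34.4, 27.5 and 35.3 CPM in null embryos. The null values stood above all others, as for Mdga1, with log2 fold changes of 1.21 against WT (SE 0.132, edgeR adjusted p = 0.00565) and 0.94 against heterozygotes (SE 0.139, edgeR adjusted p = 0.032). No other partner was called between null and heterozygote embryos, where 62 were tested, 11 had an unadjusted p under 0.05 (11.4% of all genes) and DESeq2 called 1 (1.96% of all genes). Between heterozygotes and WT edgeR called 0 of 66, with 15 at an unadjusted p under 0.05 (13.1% of all genes) and 3 called by DESeq2 (1.73% of all genes).

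**Figure D5:**
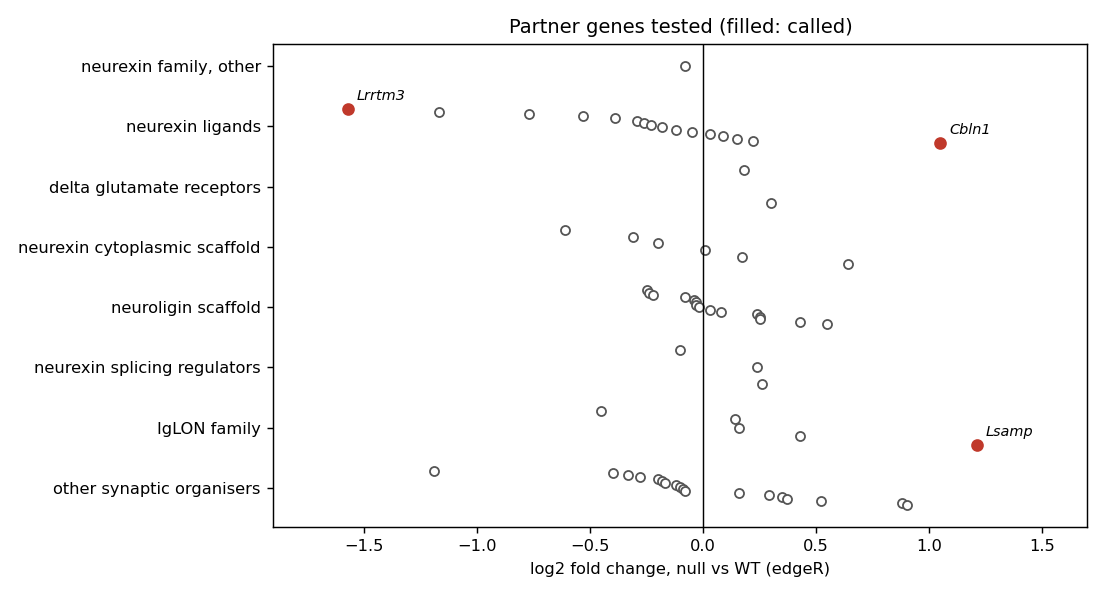
Log2 fold change of the 66 tested partner genes in null embryos against WT, by list, with filled points for the 3 called genes. Lrrtm3 lies at -1.57, Cbln1 and Lsamp at 1.05 and 1.21, and the remaining points are spread on both sides of 0.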

How the data were processed

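RNA was measured in 9 cochlear duct libraries, 1 per embryo, grouped by labelled genotype. The authors made TruSeq mRNA libraries, sequenced single reads and aligned them to mm10 with STAR. The submitters' processing notes also name cutadapt 1.13, HTSeq 0.6.1p1 and DESeq2. The authors deposited unnormalized counts, whole numbers of reads on each Ensembl gene. The strand setting and annotation release behind the counts are not given in the sources used here, so reads of genes overlapping on opposite strands may be mixed. Exons of Nrxn2, Nrxn3, Nlgn1 and Mdga2 overlap those of other annotated genes, which had at most 11 counts a library.

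Each pair of genotypes was fitted on its own 6 libraries with edgeR 4.0.16 (R 4.3.3), TMM normalization, the quasi-likelihood test and filterByExpr at its minimum count of 10. A gene was called at a Benjamini-Hochberg adjusted p under 0.05, over all genes tested, and an absolute log2 fold change over 0.5. The standard error was the log2 fold change divided by the square root of F. CPM were TMM-scaled over 9 libraries, and exon lengths and positions came from GENCODE vM21 (mm10). The fits were first tested on simulated counts. For 3 against 3 embryos the smallest two-sided p of an exact permutation test is 0.1. No pair of libraries of one genotype was as alike as a repeated library.

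The genes followed and the partner and marker lists were chosen with earlier results of these data known. Named genes were the 7 genes, partner genes called in a comparison, Prdm16, and for each of the genes called in null embryos against WT the 3 genes with the highest Pearson correlation to it (log2 CPM, prior count 2, mean CPM of 1 or more). A gene of the neuroligin scaffold list is not reported here and was left out of the counts of partner genes. Lrrtm1, Slitrk2, Ntrk3, Nxph1 and Apba1 were named outside this rule, after their values were seen. Alternatives were DESeq2 1.42.0, RLE normalization, fits without the low-count filter, with all 9 libraries, or with a block for the replicate number, and leaving out each embryo. Leaving out WT 1, WT 2 and null 3 together was added after seeing the data. Total counts of 24095322 to 30819118 set the precision.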

Additional observations from a re-analysis of the deposited data

How the results depend on the processing

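Of 252 fold changes of the 7 genes recomputed under the alternatives, 210 kept direction and call, 20 changed sign, 17 lost a call and 5 gained one. Libraries of different genotypes share replicate numbers, but same-numbered libraries had a mean correlation of deviations of -0.00668 (-0.284 to 0.202 over 9 pairs), so they share only a number. With the replicate number as a block, 1 of the 7 genes was called in null embryos against WT in place of 2, Mdga1 losing its call at 2.12, and 1 partner gene in place of 3. DESeq2 called 7 partner genes, fits without the low-count filter 5, and fits without WT 1, WT 2 and null 3 together 2. With all 9 libraries in one fit 0 of the 7 genes were called in heterozygotes against WT. In the 6-library fit 4 of the 7 had an unadjusted p under 0.05, beside 13.1% of all genes. DESeq2 called 3 of the 7, beside 1.73% of all genes it tested. The 7 genes were chosen with these counts known, so nothing is read from such shares. Leaving out 1 embryo gave between 0 and 3 of the 7 genes called in null embryos against WT (0 without WT 1 or WT 2), 0 to 3 in heterozygotes against WT (0 without heterozygote 2 or 3), 0 to 1 in null embryos against heterozygotes, and 0 to 5 partner genes (0 without WT 2, 5 without null 3).

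Most sign changes were of values close to 0. Nrxn2 in null embryos against WT was 0.00 with all 9 libraries in one fit and -0.51 to 0.24 over single embryos left out. Mdga1 in heterozygotes against WT was 0.02 with the block, 0.66 without the 3 libraries high in mesenchyme markers, and -0.26 to 0.15 over single embryos. Between null and heterozygote embryos, Nlgn3 was 0.11 without those 3 libraries and -0.13 to 0.11 over single embryos, Nrxn3 -0.02 to 0.14 and Nlgn2 -0.01 to 0.07 over single embryos. Mdga2 there was -0.32 with the block, -1.31 without the 3 libraries, and -1.31 (without null 3) to 0.88 over single embryos. Nlgn1 in heterozygotes against WT was -0.29 to 0.06 over single embryos. The cause was not tested.

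Over all these settings Mdga1 stayed between 1.86 and 2.62 and Nrxn3 between 0.84 and 1.00 in null embryos against WT, whether or not called. Mdga2 called in heterozygotes kept its call in 2 of 6 fits without 1 embryo. Nrxn2 and Nlgn1 rested on 36 to 119 counts a library, which limits their precision.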

Other observations

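The genes closest in pattern to Nrxn3 over the 9 libraries, by Pearson correlation of log2 CPM among 14809 genes, were Kcnj16, an inwardly rectifying potassium channel subunit (r = 0.967), Parp8 (r = 0.957) and the deubiquitinase Usp2 (r = 0.955). Kcnj16 was at 21 to 24.8 CPM in WT, 34.3 to 39.6 CPM in heterozygotes and 33.2 to 45.3 CPM in null embryos. Like Nrxn3, it was above the WT range in all 6 mutant libraries. The genes closest to Mdga1 were Tmem178 (r = 0.976), Klhl5 (r = 0.968) and the efflux transporter Abcg2 (r = 0.967). Tmem178 was at 1.53 to 1.61 CPM in WT, 1.46 to 1.73 CPM in heterozygotes and 2.75 to 3.26 CPM in null embryos, and Abcg2 at 12.8 to 15.4, 15.4 to 15.6 and 19.6 to 22.2 CPM. These genes were picked as the highest of many correlations, and the libraries share genotype, depth and tissue makeup, so the values are a description.

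Among the other partner genes, Nxph1, a secreted ligand of neurexins, was near the floor of the counts. It had 0, 0 and 2 counts in WT, 0, 6 and 4 in heterozygotes and 13, 10 and 15 in null embryos, and did not pass the filter of the edgeR test. Slitrk2, a leucine-rich repeat organiser of synapses, was at 2.19, 3.02 and 2.78 CPM in WT and 5.28, 4.52 and 5.15 CPM in null embryos (log2 fold change 0.90, SE 0.21, edgeR adjusted p = 0.0982), and was called by DESeq2 only. Apba1, a cytoplasmic partner of neurexins, was at 3.88 ± 0.579 CPM in WT, 1.89 ± 0.514 CPM in heterozygotes and 6.11 ± 7.02 CPM in null embryos (SD, n = 3 each). Its null mean rested on null 3, at 14.2 CPM against 2.35 and 1.78 CPM in the other null embryos, which were below all WT values. Null 3 was the library highest in mesenchyme markers and in the neuron markers other than Isl1 (42.5 CPM). With Isl1 included, null 3 had the lowest neuron marker sum (218 CPM). Ntrk3, a neurotrophin receptor that also organises synapses, was at 25 ± 2.97 CPM in WT and 35.9 ± 4.97 CPM in null embryos (SD, n = 3 each; log2 fold change 0.52, SE 0.14, edgeR adjusted p = 0.156). These 4 genes were chosen after their values were seen. DESeq2 and not edgeR called Nxph1, Slitrk2, Ntrk3 and Lrrtm1 in null embryos against WT, and Apba1, Cbln1 and Lrrtm1 in heterozygotes against WT.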
